A study of Mus musculus with 4 samples.

Results

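Secretoglobins were examined in RNA-seq of sorted olfactory cells, taking the 6 genes listed under the symbols Abpa, Abpb, Scgb1a1, Scgb1c1, Scgb3a1 and Scgb3a2 out of 23337 gene symbols counted in 4 samples. The symbols were chosen by their counts in mutant and control cells of these same samples, so the difference between genotypes is given for them as a description, without a test. Cells were sorted by red fluorescence from the olfactory mucosa of 1 mouse per sample, 4 weeks after damage by 50 mg/kg methimazole, a drug injected into the peritoneum that strips the olfactory epithelium. The 2 controls were Lmnb1+/- and the 2 mutants Lmnb1-/-, where Lmnb1 encodes the nuclear envelope protein lamin B1. All 4 mice, of mixed background, carried a Cre recombinase transgene under the Keratin 5 promoter, which is active in horizontal basal cells, the reserve stem cells of this tissue, and a Cre-dependent Tomato reporter. Every sorted population had therefore lost at least 1 Lmnb1 allele by removal of the floxed exon 2, in stem cells and their progeny within a mosaic tissue. Control 1 and mutant 1 were littermates and formed experimental group 1, and control 2 and mutant 2 formed experimental group 2. The labels say that the groups differed in treatment, parents, age and sex, and across the study mice of both sexes were 2 to 6 months old. The study's methods add that sample preparation and sequencing were shared within a group, and the study names litter, batch and treatment as differences between groups. All of these go together with experimental group and cannot be told apart here.

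Secretoglobins are small secreted proteins of mucosal surfaces and glands that form disulphide-linked dimers around a hydrophobic pocket able to bind steroids and other small lipophilic molecules. Androgen-binding protein of mouse saliva and tears joins an alpha subunit, encoded by Abpa, to a beta or gamma subunit, and Abpb encodes a beta subunit. In mice the Abp genes form a large cluster of close copies. Scgb1a1 encodes the club cell secretory protein of the airways, Scgb3a1 and Scgb3a2 encode airway secretoglobins, and Scgb1c1 is known from olfactory and nasal mucosa, where secretions of Bowman's glands enter the mucus that bathes the sensory cilia.

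In GENCODE annotation of mm10, the genome build of the counts, Abpa is the older symbol of Scgb1b27, on chromosome 7 at 34021483 to 34022881 on the plus strand. Scgb1c1 also lies on chromosome 7, at 140845547 to 140846769, and Scgb3a1 on chromosome 11 at 49663610 to 49665118, both on the plus strand. Scgb1a1 lies on chromosome 19 at 9083636 to 9087958 on the minus strand. No entry could be matched to Abpb, so its level is not given per length and it is named by its symbol alone. RefSeq start-site entries of the same build (GRCm38.p6) matched 3 of the members. The 250 bases before the RefSeq start are printed for Abpa, the member with 0 counts in both controls and counts in both mutants, and for Scgb1c1, the most abundant. The first spans chr7:34021231-34021480 and the second chr7:140845315-140845564, both on the plus strand.

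Abpa upstream: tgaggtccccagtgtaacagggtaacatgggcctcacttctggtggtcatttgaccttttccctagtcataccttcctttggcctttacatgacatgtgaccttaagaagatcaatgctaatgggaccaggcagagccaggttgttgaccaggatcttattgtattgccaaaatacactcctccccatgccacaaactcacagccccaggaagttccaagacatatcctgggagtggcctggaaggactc

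Scgb1c1 upstream: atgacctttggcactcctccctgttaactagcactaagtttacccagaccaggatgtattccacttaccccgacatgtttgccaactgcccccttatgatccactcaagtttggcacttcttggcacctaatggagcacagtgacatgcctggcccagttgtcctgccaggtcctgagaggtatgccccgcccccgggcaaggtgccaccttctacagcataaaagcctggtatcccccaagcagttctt

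The sequence TATAAA, the core of the TATA box, was searched on both strands in 300 bases around each RefSeq start, of which 50 lie after it. It was found for Abpa and not for Scgb1c1 or Scgb3a1, and 13.6% of 32851 promoters held it. The Abpa match lay 42 bases after the RefSeq start, in the window chr7:34021501-34021530 on the plus strand, with the match in capitals.

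Abpa window: ccactctgcagaccagggcagtTATAAAag

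GENCODE lists Abpa transcripts that start at 34021483 and at 34021567, and the second begins 44 bases after the first base of the match. The counts are summed over the gene and do not separate these starts.

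Gene counts summed to 14833396 to 23704638 per sample, so 3 counts, taken as the smallest detectable number, corresponded to 0.127 to 0.202 CPM, the unit of counts scaled to the sample's total that is used here. Lmnb1 counts were 477 and 395 in controls 1 and 2 and 326 and 149 in mutants 1 and 2, and they include the exons outside the deleted one. Mutant 1 stood apart in having 1603 genes at 0 counts, compared with 5173 to 6053 in the other samples, and 39.4% of its uniquely aligned reads outside genes, compared with 22.1% to 24.9%. Horizontal basal, mature neuron and sustentacular cell markers were all detected in every sample, as 8 of 8, 10 of 10 and 9 of 9 genes. Markers of mature neurons were lower in mutants for 10 of 10 genes (edgeR adjusted p under the threshold of 0.05), compared with 4.3% of all genes. Their summed level was 17137 and 7517 CPM in controls 1 and 2 and 10078 and 2208 CPM in mutants 1 and 2. Of 8 horizontal basal markers 2 were higher in mutants and 0 lower, compared with 1.28% of all genes called higher. Of the 9 sustentacular markers 0 were called. Ciliated cell markers were lower in mutants for 3 of 9 genes and ensheathing glia markers for 1 of 7, with 0 higher. Leukocyte markers summed to 405 to 872 CPM, with 0 of 10 tested genes called in either direction. In sorted pools, a change in the number of cells of a type and a change in RNA per cell cannot be told apart.

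Abpa, the alpha subunit, had 0 counts in control 1 and 0 in control 2, compared with 225 and 59 in mutants 1 and 2. These mutant counts were 10.2 and 3.98 CPM. Both mutants thus lay above both controls, an order that 12.6% of the 15438 tested genes showed. Set against the 3-count floor of the matched control, Abpa was at least 80.3-fold higher in mutant 1 and at least 28.4-fold higher in mutant 2. The edgeR log2 fold change of 10.15 has no standard error and is set by the model's handling of 0 counts.

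Abpb, the beta subunit, had 21 and 0 counts in controls 1 and 2 and 416 and 125 in mutants 1 and 2. The corresponding levels were 0.886, 0, 18.8 and 8.43 CPM. Controls and mutants did not overlap for Abpb either, but unlike Abpa it was detected in 1 control. The ratio of mutant to control CPM was 21.2 in experimental group 1 and at least 60.1, against the 3-count floor, in experimental group 2. Its log2 fold change over both groups was 5.38 (SE 0.69).

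The share of Abpa had overlapping intervals in the mutants. Abpa made up 35.1% of the summed Abpa and Abpb counts in mutant 1 (225 of 641, 95% exact binomial interval 31.4% to 38.9%) and 32.1% in mutant 2 (59 of 184, 25.4% to 39.3%). In control 1 it was 0 of 21, with an exact upper limit of 16.1%. Both genes had 0 counts in control 2, so only 1 control mouse has a share. The members were chosen by these counts, so the share is not compared between genotypes. The intervals cover counting error only, since several reads can stem from 1 molecule and no molecular identifiers were used.

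**Figure D1:**
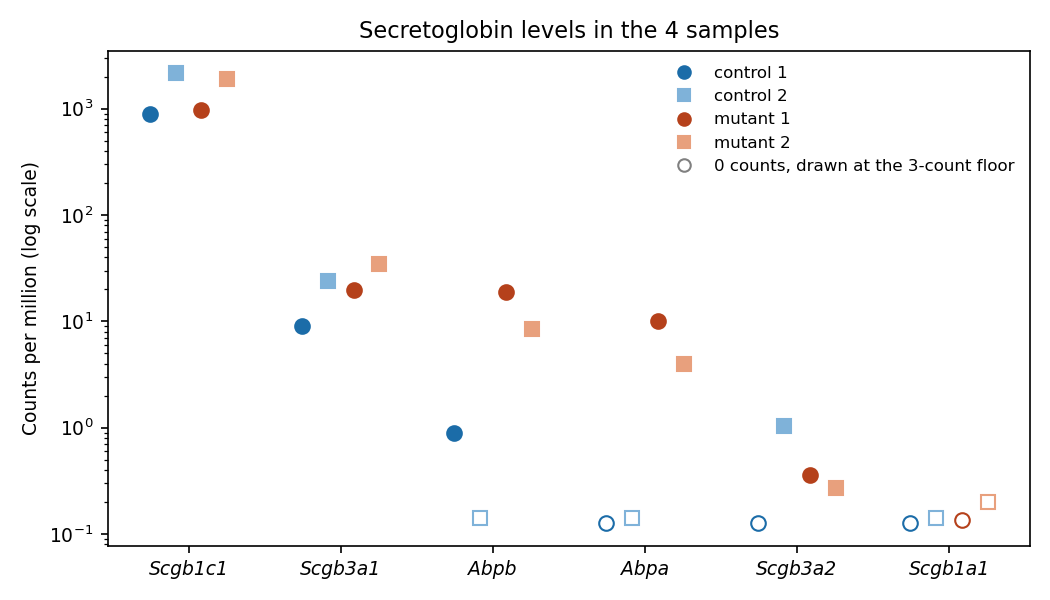
Level of each secretoglobin in CPM (log axis) in the 4 samples, with circles for experimental group 1, squares for experimental group 2 and open symbols for 0 counts, drawn at the 3-count floor of the sample. Abpa and Abpb were higher in both mutants, whereas Scgb1c1 followed experimental group, with 899 and 973 CPM in group 1 and 2156 and 1888 in group 2.

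Scgb1c1 was the most abundant member. Its level was 899 and 2156 CPM in controls 1 and 2 and 973 and 1888 CPM in mutants 1 and 2. Ordered by counts among all 23337 symbols, it ranked 80th, 17th, 80th and 19th in these samples. Its levels separated by experimental group and not by genotype, and within each group mutant and control were close. The log2 fold change was -0.09 (SE 0.29), and the log2 ratio of mutant to control was 0.022 in experimental group 1 and -0.21 in group 2.

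Scgb3a1 was found at 9.03 and 24.0 CPM in controls 1 and 2 and at 19.6 and 34.4 CPM in mutants 1 and 2. Each mutant was above the control of its own group, but control 2 was above mutant 1, so the genotypes overlapped. Its log2 fold change was 0.76 (SE 0.28), and the log2 ratio of mutant to control was 1.01 in experimental group 1 and 0.50 in group 2.

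Scgb3a2, on chromosome 18, was near the floor, with 0 and 22 counts in controls 1 and 2 and 8 and 4 counts in mutants 1 and 2. The 22 counts of control 2 were 1.03 CPM, the highest level of this gene. Mutant 1 was above control 1 and mutant 2 below control 2, so the groups shared no direction. Scgb1a1 had 0 counts in all 4 samples, which allows a level of up to 0.127 and 0.140 CPM in controls 1 and 2 and up to 0.135 and 0.202 CPM in mutants 1 and 2.

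Levels of different genes were compared as CPM per kilobase of exon, for the 5 members with a known length. Scgb1c1 reached 1975, 4738, 2139 and 4150 in control 1, control 2, mutant 1 and mutant 2. Scgb3a1 followed at 15.1, 40.1, 32.7 and 57.6 in the same order, below Scgb1c1 in each sample. Abpa came next in the mutants, at 10.1 and 3.96, and its range did not overlap that of Scgb3a1 there. Scgb3a2 did not exceed 1.17. In the controls the ranges of Abpa, Scgb3a2 and Scgb1a1 overlapped at 0, so their order is not defined.

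Because counts in mutant 1 were spread over many genes that were silent elsewhere, the members were set beside that background. Among 3748 genes of known length with 0 counts in the other 3 samples, the median density in mutant 1 was 1.80 counts per kilobase of exon and the 95th percentile 12.7. Over the exon length of Abpa, 1005 bp, these densities correspond to 1.81 and 12.8 counts, compared with the 225 observed. Of the 3748 genes, 1 was denser in mutant 1 than Abpa. Abpa was not among these genes, since it had 59 counts in mutant 2. It was also chosen by its counts in these samples, so its place beside these genes is a description and no test. The 8 counts of Scgb3a2 in mutant 1 lay between its 1.59 counts at the median density and 11.2 at the 95th percentile, and 357 of the genes were denser.

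**Figure D2:**
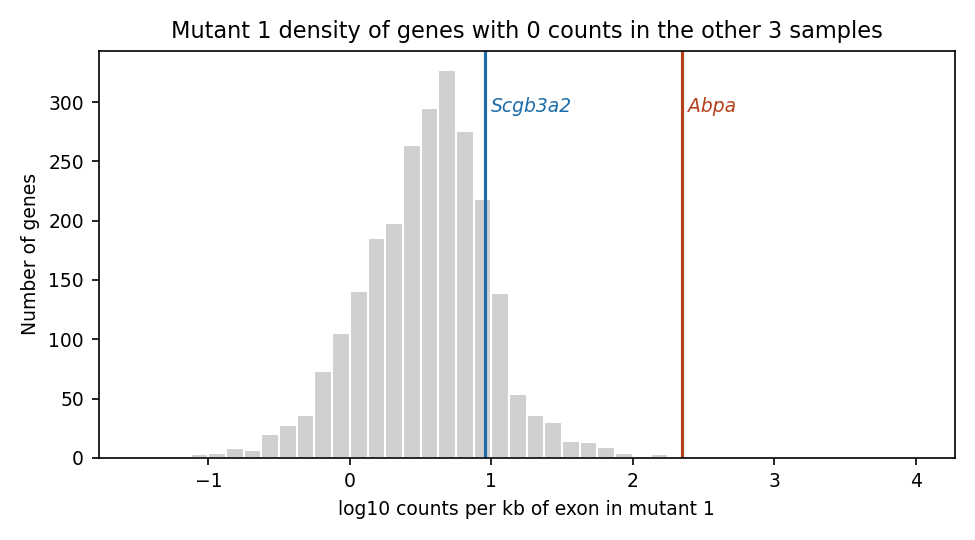
Distribution of log10 counts per kilobase of exon in mutant 1 for genes with 0 counts in the other 3 samples, as the number of genes per bin, leaving out 1256 genes that were also at 0 in mutant 1. Vertical lines mark Scgb3a2 at 9.09 and Abpa at 224 counts per kilobase, the former inside the distribution and the latter with 1 gene to its right. Both had counts outside mutant 1, so neither is among the genes drawn.

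Other members of the family that could be assigned in the files showed no such counts. RefSeq lists 53 mouse secretoglobin genes, 49 of them on chromosome 7. Of these 53, 17 were found in the files, among them every member except Abpb. No counts could be assigned by name to the others, and Abpb, which has counts, was matched to none of the 53. Besides the 6 members, 12 symbols of the files could be assigned to the family, 6 of them by a RefSeq synonym looked up after the files were seen. Of these 12, 10 had counts in mutant 1, 2 in control 2, and 0 in control 1 or mutant 2. The highest count was 12, for Scgb2b1-ps in mutant 1, and 0 of the 12 passed the filter of more than 1 CPM in at least 2 samples. HTSeq as run by the authors leaves out reads with more than 1 alignment, so copies of near-identical sequence can be undercounted. Windows of 50 bases, the read length, were searched as exact matches in annotated transcripts, so near-identical or unannotated copies were not covered. Abpb, with no matched entry, was not searched. All 956 windows of 50 bases in Abpa transcripts were found in no transcript of another gene. The same held for Scgb1a1, Scgb3a1 and Scgb3a2, while 9.11% of 406 Scgb1c1 windows also occurred in C330022C24Rik, a gene that overlaps it on the opposite strand. Whether the counting used strand is not given in the sources used here, so reads of the overlap cannot be assigned to either gene with certainty.

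Mutants and controls were compared across all genes with edgeR, with experimental group as a block, and 4 members passed the filter on low counts. Abpa and Abpb passed it through the mutants, Scgb1c1 and Scgb3a1 in all 4 samples, and Scgb1a1 and Scgb3a2 did not pass it. Over all genes 1.28% were called higher and 4.3% lower in mutants. Abpa and Abpb were among the genes called higher and 0 members were called lower, a count that follows from how the members were chosen. Under DESeq2 0 of the 4 members were called. Without mutant 1 or without mutant 2, Abpa and Abpb no longer passed the filter, so the call could not be made from a single mutant.

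The experimental groups were compared in the same model, a contrast that did not serve to choose the members, in which 31.6% of all genes were called in either direction. Scgb1c1 was 1.14 higher in experimental group 2 as a log2 difference (SE 0.29, edgeR adjusted p = 0.000641), with both samples of group 2 above both of group 1. Scgb3a1 was higher by 1.14 as well (SE 0.28, edgeR adjusted p = 0.000369), and its groups also did not overlap, an order seen in 31.4% of tested genes. Abpb was lower in experimental group 2 by -2.04 (SE 0.66, edgeR adjusted p = 0.0111). It went from 18.8 to 8.43 CPM in mutants and from 21 counts to 0 in controls. Abpa and Abpb entered this comparison only through their mutant levels, by which they were chosen, so their p-values here are not independent of that choice. For Abpa the difference was -1.25 (SE 0.95, edgeR adjusted p = 0.325) and did not pass, and it rests on the mutants alone. With edgeR's quasi-likelihood test (adjusted p = 0.0781) or DESeq2 (adjusted p = 0.283) Abpb missed the threshold. A fit of experimental group alone, without the genotype term, was also run with all 4 samples. In it Scgb1c1 missed the threshold (edgeR adjusted p = 0.0887), as did Abpb (edgeR adjusted p = 0.62), and Scgb3a1 passed (edgeR adjusted p = 0.0377). With single samples left out of this fit, Scgb1c1 lay between 1.05 and 1.25. Scgb3a1 was 0.63 without control 1 and 0.80 without mutant 2, and Abpb was -0.16 without control 2. Of the 9 sustentacular cell markers, 6 were higher and 0 lower in experimental group 2, with a median log2 difference of 1.14, and 9 of 10 mature neuron markers were lower, with a median of -1.45. The part of these cell types in the differences between groups was not tested.

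The members were next placed among genes of the same secretions, using lists drawn up with earlier results of these samples known. Nasal lipocalins, small secreted odorant- and pheromone-binding proteins, are other carriers secreted into nasal mucus. The study of the same samples singled them out, so their direction is not independent evidence. Of 11 tested, 9 rose in mutants and 0 fell, compared with 1.28% called higher over all genes. Their median log2 fold change was 5.22, compared with -0.01 over all genes. Obp1a, an odorant-binding protein, stood at 79.7 and 3.65 CPM in controls 1 and 2 and 1076 and 424 CPM in mutants 1 and 2, which is 5.22 higher on the log2 scale in mutants (SE 0.51, edgeR adjusted p = 1.11e-12). Mup4, a major urinary protein also made in nasal tissue, had 8.65, 1.17, 385 and 285 CPM in the same order (log2 fold change 6.53, edgeR adjusted p = 6.22e-34). The other genes that rose were Mup5, Lcn4, Lcn11, Lcn13, Gm14743, Gm14744 and 5430402E10Rik, with log2 fold changes from 1.33 for Lcn4 to 6.24 for 5430402E10Rik. Lcn3 and Lcn14 did not pass, at 1.04 and 1.12 (edgeR adjusted p = 0.0736 and 0.122). All 11 lipocalins were lower in experimental group 2, by a median of -2.89, the direction of Abpb and not that of Scgb1c1 or Scgb3a1. Among all 15438 tested genes, 2156 were called lower in that group. With no block for experimental group, 2 lipocalins rose. With no block, 3 rose when control 2 was left out and 1 when mutant 1 was.

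Genes of a pattern like that of Abpb, Abpa and Scgb1c1 are given as a description, since the distance uses the counts by which the members were chosen. Likeness was measured as the Euclidean distance between log2 CPM values (prior count 2) centred on each gene's mean, over 4 samples that share depth and group structure. The 5 genes nearest to Abpb were Gm14743 at 0.745, Obp1a at 0.765, Gm14744 at 0.974, Mup5 at 1.01 and Klk1 at 1.07, and the median distance of 15437 genes was 5.96. Nearest to Abpa were Gucy2f at 1.89, 4921528I01Rik at 1.94, Irx2 at 2.06, Mup4 at 2.15 and 1700018B24Rik at 2.41, with a median of 6.15. Of these, Mup4 was the only lipocalin and was detected in the controls, and the other 4 genes were at 0 in both. Abpb ranked 7th from Abpa, at 2.49. Nearest to Scgb1c1 were the nuclear RNA Malat1 at 0.0251, then Mast4, Prrc2c, Clk4 and Wdr72 up to 0.0599, with a median of 1.33.

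**Figure D3:**
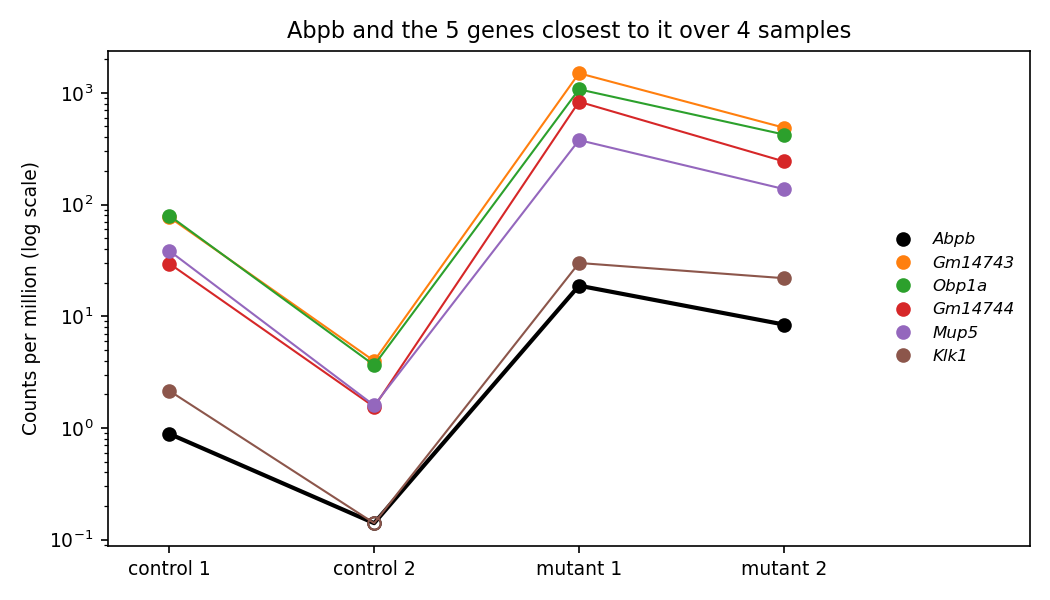
CPM (log axis) of Abpb (black) and of the 5 genes closest to it in each of the 4 samples, with lines joining the values of a gene and open symbols for 0 counts at the 3-count floor. Each gene was lowest in control 2 and highest in mutant 1, and Abpb ran from 0 to 18.8 CPM.

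Genes of nasal glands and secretory cells, like all tested genes, were called more often for experimental group than for genotype. Of 26 tested, 4 rose in mutants and 0 fell, with a median log2 fold change of 0.38, whereas 15 were higher and 4 lower in experimental group 2, with a median difference of 1.03 compared with -0.03 over all genes. Over all genes 1.28% were higher in mutants and 31.6% were called for experimental group. Their summed level was 15736 and 67261 CPM in controls 1 and 2 and 19515 and 72338 CPM in mutants 1 and 2, most of it from Bpifa1, an abundant airway surface protein. Bpifa1 was higher in experimental group 2 by 2.24 (edgeR adjusted p = 2.97e-07), and Pigr, the polymeric immunoglobulin receptor, by 2.90 (edgeR adjusted p = 1.12e-20). The 4 that rose in mutants were the mucin Muc5ac at 1.34 (edgeR adjusted p = 1.32e-05), Bpifb9a at 1.04 (edgeR adjusted p = 0.0334), the surfactant protein Sftpd at 0.67 (edgeR adjusted p = 0.0133) and Car6. Car6, a secreted carbonic anhydrase of saliva, was at 3.04 and 0 CPM in controls 1 and 2 and 26.6 and 6.81 CPM in mutants 1 and 2 (log2 fold change 4.38, SE 0.66, edgeR adjusted p = 7.46e-07), and was lower in experimental group 2 by -3.23 (edgeR adjusted p = 5.7e-05). Its order of samples was that of Abpb. Without the block 0 gland genes rose, and 0 to 2 did so when single samples were also left out.

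**Figure D4:**
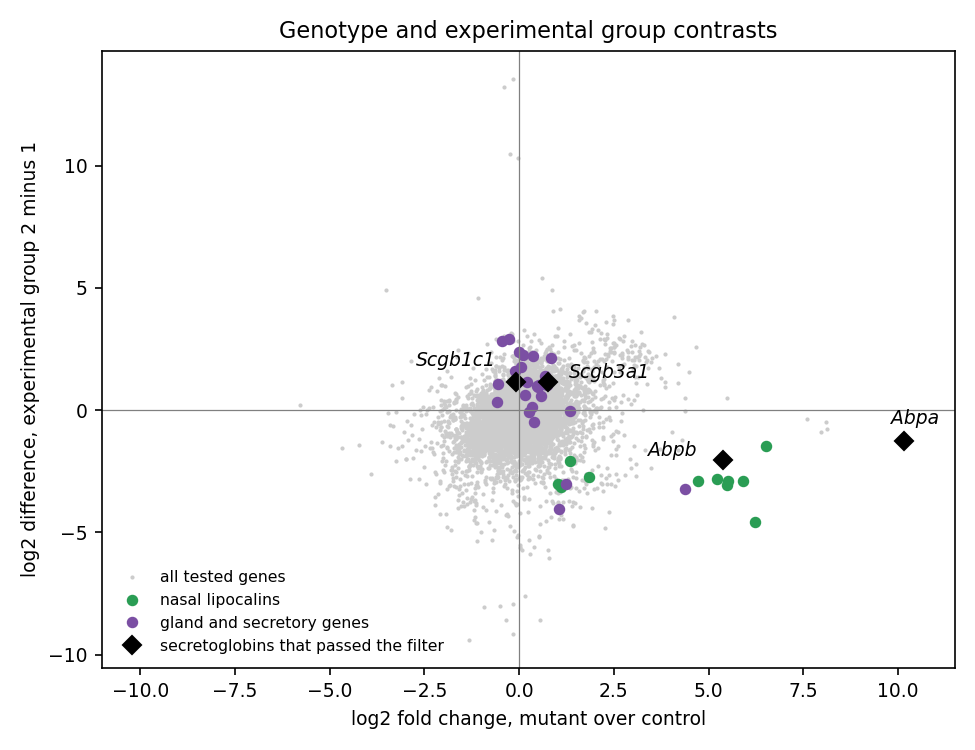
Log2 fold change of mutant over control (horizontal axis) against the log2 difference of experimental group 2 minus 1 (vertical axis) for all 15438 tested genes (grey), nasal lipocalins (green), gland and secretory genes (purple) and the 4 secretoglobins that passed the filter (black diamonds). Abpb lies near most lipocalins on the right, Abpa farther right at 10.15, a value set by 0 counts in controls, and Scgb1c1 and Scgb3a1 lie among the gland genes above 0.

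Genes of salivary and lacrimal glands, whose saliva and tears carry androgen-binding protein, were at low levels. They are called acinar genes below as the name of the list, which does not place each of them in acinar cells. Their 12 genes summed to 27.3 and 36.2 CPM in controls 1 and 2 and 55.0 and 54.9 CPM in mutants 1 and 2. The submandibular gland products Prol1, Smgc, Smr3a, Smr2 and Klk1b3 had 0 counts in both controls. Of the 12 genes, 7 and 5 reached 3 counts in controls 1 and 2, and 10 and 7 in mutants 1 and 2. The highest number was thus in mutant 1, the sample with the fewest genes at 0 counts. Over all genes 1.28% were called higher in mutants, and of the 7 genes tested here 1 rose and 0 fell. This was Klk1, tissue kallikrein, with 2.15 and 0 CPM in controls 1 and 2 and 29.98 and 21.9 CPM in mutants 1 and 2 (log2 fold change 5.49, SE 0.67, edgeR adjusted p = 7.31e-09). The median over the 7 was 0.15. Klk1 did not pass without the block or under DESeq2. The part of gland or acinar cells among the sorted cells in the Abpa and Abpb difference was not tested.

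Most genes of androgen response and steroid metabolism did not pass the test. Of 9 tested, 1 rose in mutants and 0 fell, compared with 1.28% called higher over all genes. The median log2 fold change of the 9 was 0.52. The gene that rose was Hsd17b6, a steroid dehydrogenase, at 12.9 and 21.6 CPM in controls 1 and 2 and 29.3 and 55.8 CPM in mutants 1 and 2 (log2 fold change 1.22, SE 0.22, edgeR adjusted p = 1.54e-05). Without the block 0 genes of this list passed. Sex was the same within each experimental group per the labels.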

How the data were processed

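RNA-seq of FACS-sorted Tomato-positive cells gave 4 deposited files of raw read counts per gene symbol. The authors depleted ribosomal RNA, sequenced 50-base single-end reads, removed ribosomal reads with Bowtie2 2.0.6, filtered by quality, aligned to mm10 with TopHat 2.0.7 and made the counts with HTSeq in intersection-nonempty mode (versions per the submitters' processing notes). The 5 tally lines of each file entered neither library totals nor fits. Reads outside genes, one of these tallies, were 22.1% to 39.4% of uniquely aligned reads.

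The members and all gene lists were chosen with earlier results of these data known. All 6 members are named, with list genes past the threshold, other family symbols with at least 10 counts and the 5 nearest genes of Abpa, Abpb and Scgb1c1. A gene of a list that did not pass is named where the text singles it out, after its values were seen.

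Genes above 1 CPM in at least 2 samples were fitted with edgeR 4.0.16 in R 4.3.3 (TMM factors, genotype plus experimental group, likelihood-ratio test, Benjamini-Hochberg adjustment over all 15438 genes, threshold 0.05), after the study's methods. Pairs are littermates per the labels and the study's methods, and deviations of same-numbered samples from the genotype means correlated with r = 0.52 across genes. Ratios within a group used log2 CPM with a prior count of 2 and carry no test. With 2 samples per genotype, p-values rest on few degrees of freedom. Scripts were tested on simulated data. Of the 23337 symbols, 20953 are current in GENCODE M21 and 1919 were found there as older symbols. Alternatives tried were DESeq2 1.42.0, the quasi-likelihood test of edgeR, no block, relative log expression factors, other filters, thinned counts, a prior count of 0.5 and leaving out samples. 1 gene of a list is not reported here.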

Additional observations from a re-analysis of the deposited data

Results flagged for a closer look

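The log2 ratio of mutant to control of Scgb1c1 differed in sign between the experimental groups, at 0.022 in group 1 and -0.21 in group 2, both smaller than the fitted SE of 0.29. The difference between these ratios was not tested. Reads outside genes, which the comparisons do not use, made up 39.41% of the uniquely aligned reads of mutant 1, above both controls.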

How the results depend on the processing

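Without the block for experimental group, 0 genes in place of 664 were lower and 6 in place of 197 were higher in mutants, and calls fell to 2 of 9 for nasal lipocalins, 0 of 4 for gland genes, 0 of 1 for acinar genes and 0 of 1 for androgen and steroid genes. The quasi-likelihood test called 115 higher genes. Acinar calls were 0 under DESeq2 and with CPM above 1 in all 4 samples, and androgen and steroid calls were 2 under DESeq2, with no filter and with CPM above 1 in all 4 samples. Leaving out samples, which drops the block, gave 0 to 5 lower genes, and 27 to 33 higher genes without a control and 3 to 19 without a mutant, 1 to 9 lipocalins, 0 to 2 gland, 0 to 2 acinar and 0 androgen and steroid genes. For Abpa, with a log2 fold change of 10.15, refits without a control gave 10.09 and 10.15, and the log2 CPM ratios of experimental group 2 alone (5.39) and group 1 alone (6.66) are another estimator with a prior count. Refits moved the log2 fold change of Abpb from 5.38 to between 3.90 and 11.03, of Scgb3a1 from 0.76 to 0.13 and 1.57 without a control and 0.18 and 1.04 without a mutant, and of Scgb1c1 from -0.09 to -0.63 without control 1 and -0.71 without mutant 2. Scgb1c1 turned positive without control 2 (0.66), without mutant 1 (0.28) and as the log2 CPM ratio of experimental group 1 alone (0.022). With a prior count of 0.5 the log2 ratio of Abpa was 8.65 in experimental group 1 and 7.36 in group 2, and that of Abpb in group 2 was 8.44, since each is set against a control at 0. For the difference between experimental groups, Abpb fell short of the threshold at -3.58 with DESeq2, -1.90 with the quasi-likelihood test and -1.16 in a fit that lacks genotype, and leaving out samples gave -2.11 to -0.16. Scgb1c1 fell short at 1.14 without the genotype term and 1.20 with no filter, and leaving out samples gave 1.05 to 1.11 without a control and 1.14 to 1.25 without a mutant. Scgb3a1 lay between 0.63 and 1.66 with samples left out, and fell short without control 1 (0.63) and without mutant 2 (0.80). Fits that leave out a sample also lack the other term of the model. Genotype and experimental group are then unbalanced, so a difference in either can enter the estimate of the other. The cause of each change was not tested. With relative log expression factors or thinned counts, each count named here stayed within 1.5 times its value and each member kept its direction. Without either mutant, Abpa and Abpb failed the filter and gave no value. Intervals and the 3-count floor cover counting error only, and a level of Scgb1a1 under the floor was not detectable at this depth.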
